A study of Mus musculus with 26 samples.

Results

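Strong loops that appeared in both RNA polymerase II HiChIP lists of the series made up 4526 of its 632860 loop rows. A row was taken when it carried at least 10 tags (read pairs joining its anchors) in either list and the other list held a row of at least 2 tags whose anchors overlapped both of its anchors by at least 1 base, in either order. Members were thus chosen by their tag counts and by overlap. This gave 2081 of 489409 rows in the KO-labelled list and 2445 of 143451 rows in the WT-labelled list. Joined through their overlaps, the rows formed 3499 distinct loops, of which 2658 consisted of 1 row from each list. Tag counts of these loops are therefore given as a description, with no test, while RNA, gene annotation, span and sequence were not read by the choice.

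E14 is a line of mouse embryonic stem cells (ESCs), and the samples used here are labelled as neural progenitor cells (NPC), made from it by 12 days of neural induction. They carried a knockout (KO) of Klf4 or were wild type (WT), with no drug or time difference between the genotypes given in the labels. Before induction the ESCs were kept on gelatin in serum with LIF and inhibitors of MEK and GSK3. For each genotype label there were 2 HiChIP samples, deposited as 1 pooled loop list, and 2 RNA-seq libraries, which the series design calls biological replicates. How many KO clones were used is not given in the sources used here.

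RNA polymerase II HiChIP crosslinks chromatin, joins DNA ends that lie close together and enriches the joined fragments that carry the polymerase. Its loops therefore mostly link transcribed promoters with one another, with enhancers, or with stretches of the same transcribed gene. In ESCs the pluripotency factors Nanog, Sox2 and Pou5f1 are known for promoters contacted by distal enhancers, and these enhancers are silenced during neural differentiation, when genes such as Nes are switched on.

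The targeted gene went against the labels. Klf4, a zinc-finger factor of the naive pluripotency network, had 2571 and 2538 counts in the KO-labelled libraries, against 0 and 0 counts in the WT-labelled libraries. As counts scaled to library size (CPM), KO-labelled libraries held 75.0 and 70.8 CPM. Against a floor of 3 counts per library this is at least 752-fold higher than in WT-labelled libraries, with an adjusted p of 1.25e-23 by edgeR's quasi-likelihood test. Where the knockout lies in the gene is not given in the sources used here, so the libraries are called by their labels throughout. Whether labels were exchanged, in the RNA-seq, in the HiChIP or in both, was not tested, and an exchange in 1 assay alone would turn round the sign of each relation between tags and RNA. The libraries and lists keep their labels here, and every direction below runs from the library or list labelled KO over the one labelled WT. Gene counts totalled 31909094 and 33347088 in KO-labelled and 37703866 and 29835774 in WT-labelled libraries. The cell type label was also checked. All 12 markers of pluripotent cells had at least 5 CPM under both labels and summed to 5002 and 5086 CPM in KO-labelled and 9060 and 9069 CPM in WT-labelled libraries. The 12 markers of neural progenitors summed to 413 and 423 CPM in KO-labelled and 121 and 119 CPM in WT-labelled libraries, with 5 and 4 of them at 5 CPM or more. Of these 12 markers, Nes alone had a gene start at an anchor of these loops, and Pax6 and Sox1 had none. The sum of 6 neuron markers ran the other way, at 202 and 201 CPM in KO-labelled and 509 and 493 CPM in WT-labelled libraries. However, 3 of them had at least 5 CPM under the KO label and 2 under the WT label. Of 20 tested genes of a wider neuronal list, 11 were called higher and 7 lower in KO-labelled libraries (median log2 fold change 1.29). Glia markers summed to 55.8 and 58.7 CPM in KO-labelled and 19.7 and 15.4 CPM in WT-labelled libraries. Fibroblast and mesenchyme markers summed to 429 and 415 CPM in KO-labelled and 0.940 and 0.723 CPM in WT-labelled libraries, and endoderm markers to 36.1 and 37.2 CPM in KO-labelled and 1.05 and 1.34 CPM in WT-labelled libraries. The part of these markers in the results was not tested. In such bulk samples, fewer cells of a type and less RNA per cell cannot be told apart.

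The promoters shown here are those of genes at some of the strongest shared loops (Irf2bpl, Ptma and Malat1), of the targeted gene Klf4, and of genes at anchors with large RNA differences (Tfcp2l1 and Mylpf, lower in KO-labelled libraries, and Cdc42ep1 and Glipr2, higher). Each runs from 250 bases before to 50 bases after the gene start, 5′ to 3′ on the gene's strand, from RefSeq on GRCm38.p6, the assembly of mm10. Capitals mark a GC box (GGGCGG) or a KLF-type motif (GGGNGTGG) on either strand, and overlapping matches run together. The Irf2bpl sequence lies at chr12:86884765-86885064 (minus strand), Ptma at chr1:86526307-86526606 (plus), Malat1 at chr19:5802623-5802922 (minus), Klf4 at chr4:55532426-55532725 (minus), Tfcp2l1 at chr1:118627695-118627994 (plus), Mylpf at chr7:127211358-127211657 (plus), Cdc42ep1 at chr15:78842397-78842696 (plus) and Glipr2 at chr4:43957452-43957751 (plus).
Irf2bpl: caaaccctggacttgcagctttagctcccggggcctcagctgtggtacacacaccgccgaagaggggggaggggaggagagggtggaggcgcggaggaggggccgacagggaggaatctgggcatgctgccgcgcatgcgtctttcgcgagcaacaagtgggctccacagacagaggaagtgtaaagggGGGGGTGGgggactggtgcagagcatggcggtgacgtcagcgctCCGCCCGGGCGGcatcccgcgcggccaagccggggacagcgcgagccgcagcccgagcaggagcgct
Ptma: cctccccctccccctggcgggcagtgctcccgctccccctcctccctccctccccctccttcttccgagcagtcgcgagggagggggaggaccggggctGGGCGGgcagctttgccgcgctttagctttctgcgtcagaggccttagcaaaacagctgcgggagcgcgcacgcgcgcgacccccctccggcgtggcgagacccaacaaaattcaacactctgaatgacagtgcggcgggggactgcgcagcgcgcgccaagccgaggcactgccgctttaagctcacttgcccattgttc
Malat1: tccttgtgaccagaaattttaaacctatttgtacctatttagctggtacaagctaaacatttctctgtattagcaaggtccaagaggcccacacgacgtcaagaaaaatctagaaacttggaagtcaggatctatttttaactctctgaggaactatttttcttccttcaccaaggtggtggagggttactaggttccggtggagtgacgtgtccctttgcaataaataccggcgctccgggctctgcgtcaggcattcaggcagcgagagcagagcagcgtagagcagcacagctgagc
Klf4: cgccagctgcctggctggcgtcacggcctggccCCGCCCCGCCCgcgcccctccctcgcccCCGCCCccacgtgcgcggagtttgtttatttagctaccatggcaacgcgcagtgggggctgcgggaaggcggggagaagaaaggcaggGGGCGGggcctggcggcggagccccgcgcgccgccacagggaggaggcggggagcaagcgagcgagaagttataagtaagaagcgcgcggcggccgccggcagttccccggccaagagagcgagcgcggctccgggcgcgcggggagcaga
Tfcp2l1: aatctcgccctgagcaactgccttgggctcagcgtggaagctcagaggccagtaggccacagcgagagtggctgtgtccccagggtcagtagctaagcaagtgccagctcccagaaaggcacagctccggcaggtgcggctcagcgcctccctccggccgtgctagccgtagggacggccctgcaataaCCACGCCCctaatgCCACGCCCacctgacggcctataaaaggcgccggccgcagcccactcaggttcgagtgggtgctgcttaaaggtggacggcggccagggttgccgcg
Mylpf: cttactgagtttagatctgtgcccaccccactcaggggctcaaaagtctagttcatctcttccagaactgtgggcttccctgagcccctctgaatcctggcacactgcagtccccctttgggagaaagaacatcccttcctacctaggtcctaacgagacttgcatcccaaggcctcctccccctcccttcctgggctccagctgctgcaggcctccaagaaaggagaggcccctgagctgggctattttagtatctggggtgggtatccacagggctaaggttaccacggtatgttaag
Cdc42ep1: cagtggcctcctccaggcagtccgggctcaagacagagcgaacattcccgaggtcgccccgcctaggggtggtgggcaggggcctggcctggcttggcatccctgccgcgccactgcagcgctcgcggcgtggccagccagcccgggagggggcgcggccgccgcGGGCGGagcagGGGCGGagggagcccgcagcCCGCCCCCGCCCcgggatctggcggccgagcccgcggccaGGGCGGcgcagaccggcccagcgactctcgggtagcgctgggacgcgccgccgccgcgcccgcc
Glipr2: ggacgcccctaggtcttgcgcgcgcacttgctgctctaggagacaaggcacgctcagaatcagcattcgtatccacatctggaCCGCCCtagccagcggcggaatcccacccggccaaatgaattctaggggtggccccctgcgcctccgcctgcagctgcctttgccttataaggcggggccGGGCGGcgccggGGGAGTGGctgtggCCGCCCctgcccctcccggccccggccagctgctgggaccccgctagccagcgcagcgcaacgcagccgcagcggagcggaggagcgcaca

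These promoters differed widely in composition. Cdc42ep1 held 5 GC boxes in a window of 80.0% G and C, and Klf4 held 4 in a window of 74.3%. Tfcp2l1 held no GC box but 2 KLF-type matches. Malat1 and Mylpf held neither, at 47.0% and 55.3% G and C.

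Over all 3385 promoter windows inside the anchors of shared strong loops, 60.2% held a GC box, against 35.6% of the 32817 windows in the RefSeq table and 60.0% of the 15122 windows of genes with enough RNA to be tested. The anchors' promoters thus had the share of GC boxes found at transcribed genes in general. The KLF-type motif was in 25.0% of the anchors' promoters and in 22.9% of the promoters of tested genes. TATAAA stood in 7.59% against 7.47%, and CCAAT in 36.7% against 37.6%. The YY1-type motif AAGATGGC was in 5.41% against 3.91%, the ETS-type motif CCGGAAG in 17.7% against 15.5%, and the E box CACGTG in 10.8% against 9.64%. The NRF1-type motif was in 1.45% against 1.82%. Each motif was searched on both strands, motifs can overlap one another, and a match is a description of letters and not a binding site.

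Most strong rows had no partner. Of strong rows, 21.7% in the KO-labelled list (2081 of 9597) and 37.2% in the WT-labelled list (2445 of 6577) had a partner. The KO-labelled list offers 489409 rows to be matched and the WT-labelled list 143451, so these shares are not comparable between the lists. Since the rule reads tags and overlap, they are a description. By tag count, 20.9% of KO-labelled and 35.1% of WT-labelled rows of 10 to 19 tags were matched, and 28.2% and 45.2% of rows with 50 tags or more. No row of the other list overlapped both anchors for 7310 strong KO-labelled and 3866 strong WT-labelled rows. Among the 3499 distinct loops, 823 had a strong row in both lists, 1132 in the KO-labelled list only and 1544 in the WT-labelled list only.

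At the edge of the rule, 323 of the 1654 KO-labelled and 275 of the 829 WT-labelled rows with exactly 10 tags had a partner. Of rows with exactly 9 tags, just outside, 425 of 2145 KO-labelled and 366 of 1107 WT-labelled rows had one. The best partner had exactly 2 tags for 221 KO-labelled and 292 WT-labelled strong rows, and exactly 1 tag, just outside, for 206 and 266.

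Although the KO-labelled list held more tags in all (977208, against 407150 in the WT-labelled list, a ratio of 2.40), the shared strong loops carried more tags in the WT-labelled list. Their median was 11.0 tags in the KO-labelled and 12.0 in the WT-labelled list, and the median ratio of KO-labelled over WT-labelled tags was 0.750 (quartiles 0.297 and 2.17). More tags stood in the KO-labelled list for 1479 loops and in the WT-labelled list for 1957, with 63 equal. The rule itself can favour loops strong in the WT-labelled list. Strong WT-labelled rows had 489409 KO-labelled rows to be matched with, while strong KO-labelled rows had 143451 WT-labelled rows. How much of the difference in tags comes from the rule was not tested. The tags of the KO-labelled and WT-labelled list differed by no more than 2-fold in 1260 loops. The ratio lay above that of the list totals in 803 loops (22.9%). Tags are compared below as listed, and a loop with a ratio between 1 and 2.40 has more KO-labelled tags as listed but fewer once scaled to the list totals. Together the distinct loops held 4.85% of the KO-labelled list's tags and 15.9% of the WT-labelled list's. A false discovery rate of 0.01 or less, the authors' value, was listed for 92.2% of the KO-labelled and 71.0% of the WT-labelled rows that were chosen. Each list is 1 pooled sample, so no difference in tags has a replicate check.

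**Figure D1:**
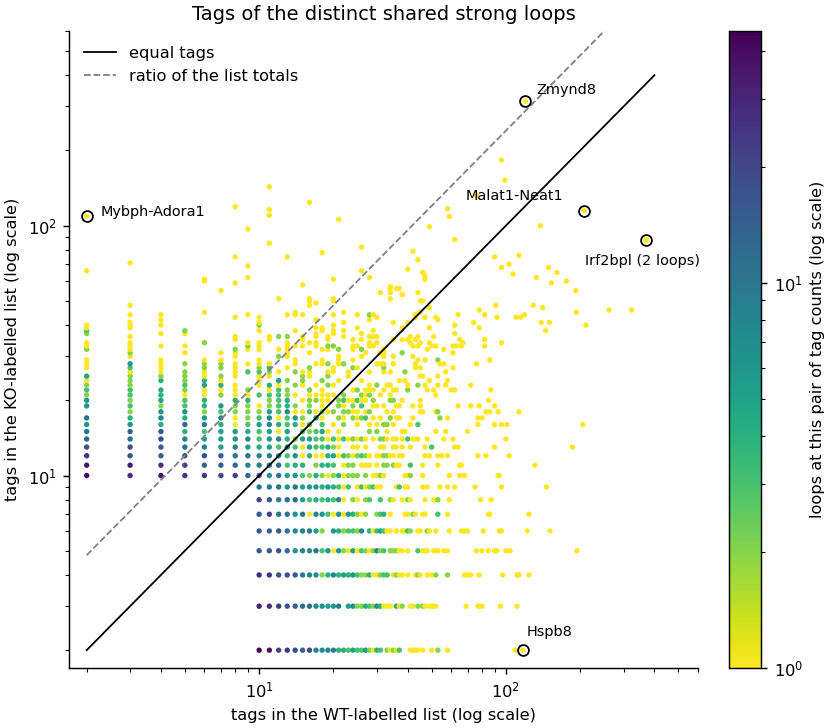
Tags of each of the 3499 distinct shared strong loops in the KO-labelled list (vertical axis) and the WT-labelled list (horizontal axis), both on log scales, coloured by the number of loops at that pair of tag counts. The solid line marks equal tags and the dashed line the ratio of the list totals, 2.40; the empty corner at the lower left is set by the rule, and 803 loops lie above the dashed line.

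The loop with the most tags in its weaker list lay within Zmynd8, which encodes a chromatin reader protein. It joined chr2:165848724-165869868 and chr2:165871292-165897225 with 315 KO-labelled and 120 WT-labelled tags, a ratio of 2.62 (95% exact binomial interval 2.12 to 3.27). Such intervals cover counting error only, and tags are not known to be independent molecules. The neighbouring Sulf2, which encodes a heparan sulfate 6-O-endosulfatase, anchored 12 shared loops with 335 KO-labelled and 482 WT-labelled tags in all, reaching Zmynd8, Ncoa3 and the noncoding RNA Platr29. Zmynd8, Sulf2 and Ncoa3 belonged to a set of 40 loops joined through common anchors over 654 kb of chromosome 2, which carried 1180 KO-labelled and 1243 WT-labelled tags.

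The neighbouring noncoding RNA genes Malat1 and Neat1, whose products mark nuclear speckles and paraspeckles, were joined by a pair of strong loops with different tag ratios. The longer loop of 36.2 kb, from the Malat1 anchor at chr19:5799057-5815620 to chr19:5833331-5853837 in Neat1, had 115 KO-labelled and 208 WT-labelled tags. The shorter loop of 13.9 kb, to chr19:5815621-5825492, had 132 KO-labelled and 76 WT-labelled tags. Scaled to the list totals, both were lower in the KO-labelled list. Malat1 RNA measured 494 and 506 CPM in KO-labelled and 261 and 259 CPM in WT-labelled libraries and rose by 0.94 on the log2 scale (adjusted p = 1.13e-19). Neat1 RNA, at 58.1 and 60.3 CPM in KO-labelled and 55.4 and 54.1 CPM in WT-labelled libraries, did not pass the test (log2 fold change 0.11, adjusted p = 0.087).

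Irf2bpl, a single-exon gene for a transcriptional co-regulator, anchored 14 shared loops with 348 KO-labelled and 1605 WT-labelled tags. A loop of 105 kb from chr12:86792703-86811270, where no named gene started, to chr12:86887434-86926893 had 88 KO-labelled and 371 WT-labelled tags. A loop of 31.9 kb across the gene had 87 KO-labelled and 370 WT-labelled tags. A loop of 18.8 kb, starting at that same distal anchor, joined stretches without a named gene start. It was more even, with 100 KO-labelled and 138 WT-labelled tags. Irf2bpl RNA was also lower, at 105 and 110 CPM in KO-labelled and 155 and 156 CPM in WT-labelled libraries (log2 fold change -0.53, adjusted p = 1.09e-11).

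Ptma, which encodes the abundant chromatin protein prothymosin alpha, had a loop of 22.5 kb to an upstream stretch with 75 KO-labelled and 90 WT-labelled tags. Its RNA measured 1952 and 2060 CPM in KO-labelled and 2784 and 2855 CPM in WT-labelled libraries (log2 fold change -0.49, adjusted p = 1.64e-14). A pair of strong loops on chromosome 8 touched no start of a named gene. They joined chr8:20120623-20123548 to chr8:20423503-20426292 (152 KO-labelled and 99 WT-labelled tags) and to chr8:19783139-19785946 (183 KO-labelled and 96 WT-labelled tags), over 303 and 338 kb.

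The ratio varied with the span of the loop. Spans between anchor centres had a median of 27.1 kb (quartiles 13.9 and 59.7, range 5.00 to 1789), and 472 loops (13.5%) were longer than 100 kb. The median tag ratio of KO-labelled over WT-labelled was 0.945 under 20 kb (1330 loops), 0.684 from 20 to 50 kb (1118 loops), 0.615 from 50 to 100 kb (579 loops) and 0.464 at 100 kb or more (472 loops). It also varied with gene starts, taking an anchor as near a start when it overlapped the 2500 bases on either side. Loops with a gene start at both anchors had a median ratio of 0.917 (1924 loops), those with a start at 1 anchor 0.615 (1221 loops) and those with none 0.414 (354 loops), although their median spans ran the other way, from 29.5 kb through 25.4 kb to 20.5 kb.

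**Figure D2:**
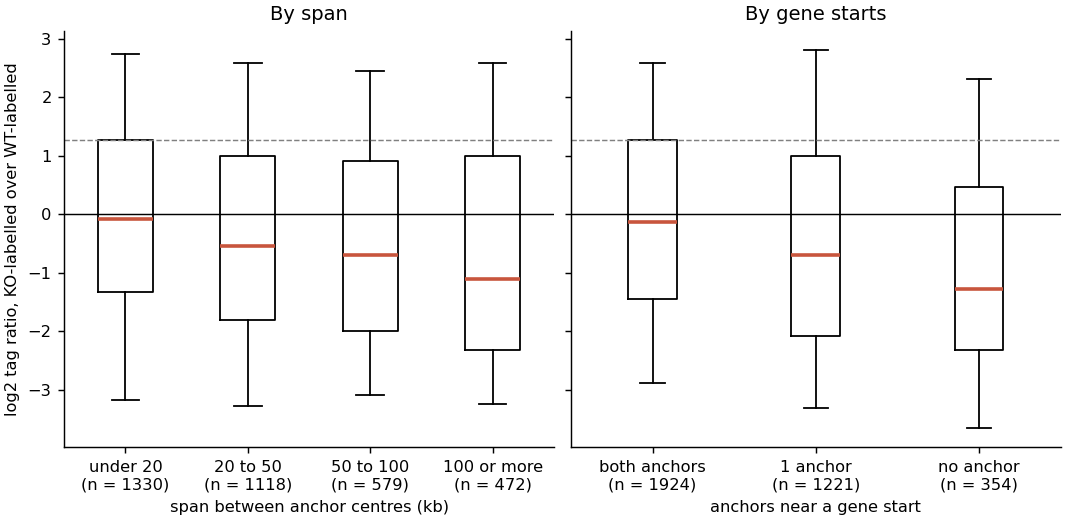
Log2 ratio of KO-labelled over WT-labelled tags per distinct loop by span (left, kb) and by the number of anchors near a gene start (right); boxes show quartiles with the median in red and whiskers the 5th and 95th percentiles. The solid line is equal tags and the dashed line the ratio of the list totals; medians fall with span and with fewer gene starts.

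Of the 5 longest shared loops, 3 joined related genes. The spans of 1713 kb and 1518 kb on chromosome 13 linked parts of the replication-type histone cluster, from chr13:22033247-22044879 to chr13:23737007-23766291 and to chr13:23548934-23565981. They had 8 KO-labelled and 12 WT-labelled tags, and 9 KO-labelled and 15 WT-labelled tags. A loop of 1169 kb on chromosome 17 joined Rnaset2b and Rnaset2a, near-identical ribonuclease genes, with 22 KO-labelled and 8 WT-labelled tags. The longest of all, 1789 kb on chromosome 14, had 3 KO-labelled and 12 WT-labelled tags and no start of a named gene. Where anchors are copies of one another, reads can be placed at either copy, and what that contributes here was not tested.

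Shared strong loops linked gene starts with gene starts more often than strong loops of 1 list. A gene start lay at both anchors of 55.4% of the KO-labelled shared rows (95% exact binomial interval 53.2 to 57.5) and 48.7% of the WT-labelled ones (46.7 to 50.7). For strong rows found in 1 list alone the shares were 19.8% (18.9 to 20.7) in the KO-labelled and 16.0% (14.9 to 17.2) in the WT-labelled list, and over all rows 19.3% and 31.7%. The gap was there at every anchor width compared. With anchors under 5 kb, the shares were 62.4% of KO-labelled and 53.6% of WT-labelled shared rows, against 20.1% and 12.6% of rows alone in those lists. At 10 kb or more they were 48.5% and 47.9%, against 23.5% and 21.9%. Shared rows were also longer than rows alone, with median spans of 22.2 kb (KO-labelled) and 28.2 kb (WT-labelled) against 17.3 and 23.5 kb. Of the anchors of distinct loops that had no gene start, 1187 of 1929 (61.5%) overlapped a gene by at least 1 base.

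**Figure D3:**
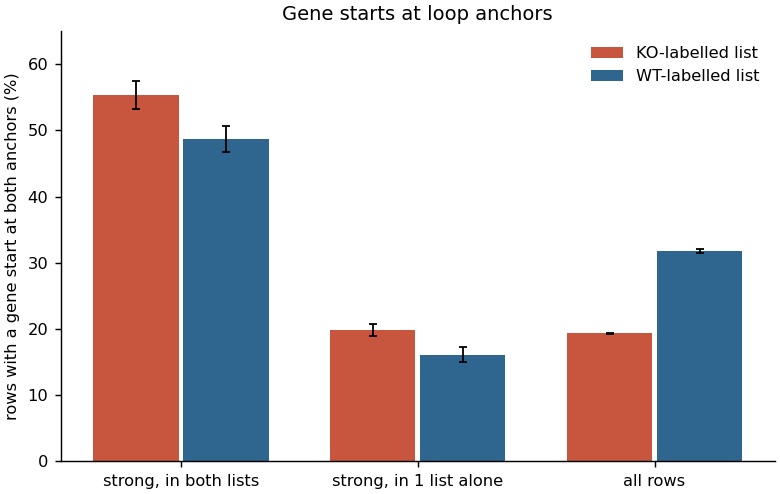
Share of loop rows with a gene start near both anchors, in percent, for strong rows in both lists, strong rows in 1 list alone and all rows, in the KO-labelled (red) and WT-labelled (blue) list; bars on top are 95% exact binomial intervals. Shared strong rows stand at 55.4% and 48.7%, strong rows alone at 19.8% and 16.0%.

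Many shared loops met at common anchors. Overlapping anchors merged into 3775 stretches, of which 198 took part in 5 or more loops and 2193 (58.1%) in 1 loop. Stretches in 5 or more loops were wider, with a median of 13.4 kb against 4.81 kb for those in 1 loop. The loops joined into 1076 sets, and 578 loops shared no anchor. A stretch at Senp3, Tnfsf12 and Tnfsf13 (chr11:69676633-69717029) took part in 16 loops with 206 KO-labelled and 536 WT-labelled tags. Their other ends included the starts of Trp53, of Polr2a, which encodes the largest subunit of RNA polymerase II, and of the translation factor genes Eif4a1 and Eif5a. Senp3, a SUMO protease gene, fell to 189 and 188 CPM in KO-labelled libraries, against 458 and 459 CPM in WT-labelled ones (log2 fold change -1.28, adjusted p = 4.65e-22). Trp53 fell further, to 122 and 125 CPM in KO-labelled libraries, against 476 and 488 CPM in WT-labelled ones (log2 fold change -1.96, adjusted p = 3.47e-25).

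Another 16 loops met at Mylpf, Septin1, Tbc1d10b and Zfp553 (chr7:127204212-127237405), with 169 KO-labelled and 473 WT-labelled tags. Mylpf, a muscle myosin light chain gene, had 12.0 and 13.9 CPM in KO-labelled and 209 and 226 CPM in WT-labelled libraries (log2 fold change -4.06, adjusted p = 2.29e-23). Tbc1d10b beside it fell by 0.97 on the log2 scale (adjusted p = 1e-14), while Septin1, listed as Sept1 in the count tables, stood at 129 and 121 CPM in KO-labelled and 125 and 126 CPM in WT-labelled libraries (adjusted p = 0.858). This anchor was part of the largest joined set, 43 loops over 1427 kb of chromosome 7 with 38 named genes.

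A stretch inside Myh9, the nonmuscle myosin heavy chain gene, went the other way, with 10 loops and 576 KO-labelled against 150 WT-labelled tags (chr15:77787793-77832282). Myh9 RNA rose to 613 and 591 CPM in KO-labelled libraries, against 286 and 292 CPM in WT-labelled ones (log2 fold change 1.06, adjusted p = 1.1e-20). The stretch at chr2:30704816-30726823, with 11 loops, also had more KO-labelled tags (302, against 153 WT-labelled). Ier5l at 1 of its other ends fell by 1.31 on the log2 scale (adjusted p = 6.64e-15). The tag ratio at that stretch lies above 1 but below the ratio of the list totals, so its direction depends on whether tags are scaled to the lists.

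The most uneven loops carried few tags in their weaker list, as the rule allows. A loop from Chil1 and Mybph to Adora1 on chromosome 1 had 109 KO-labelled and 2 WT-labelled tags, a ratio of 54.5 (95% exact binomial interval 14.7 to 456). Adora1, an adenosine receptor gene, had 9 and 7 counts in KO-labelled and 0 and 0 in WT-labelled libraries, too few to be tested. A loop from the body of Nr4a1, an immediate-early nuclear receptor gene, to Atg101 had 71 KO-labelled and 3 WT-labelled tags. At the other extreme a loop of 19.9 kb ending in Hspb8, a small heat shock protein gene, had 2 KO-labelled and 117 WT-labelled tags (ratio 0.0171, interval 0.00205 to 0.0631). A loop at Zfp704 had 2 KO-labelled and 109 WT-labelled tags, with RNA of 95.8 and 96.6 CPM in KO-labelled and 108 and 110 CPM in WT-labelled libraries. That RNA difference passed the test (log2 fold change -0.18, adjusted p = 0.000592) but turned to 0.03 when libraries were scaled by size alone. A loop within Adam19, a metalloprotease gene, had 3 KO-labelled and 95 WT-labelled tags, yet Adam19 RNA rose to 191 and 188 CPM in KO-labelled libraries, against 106 and 108 CPM in WT-labelled ones (log2 fold change 0.82, adjusted p = 5.59e-16).

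Loops at pluripotency genes were mostly weaker in the KO-labelled list. Of 40 tested genes of the naive and core pluripotency list, 15 (37.5%) had a start at a shared anchor, beside 19.4% of all tested genes with coordinates. Over the other gene lists this share ran from 0% (Hox genes) to 84.4% (replication-type histones). Abundant genes lay at shared anchors more often, with 2012 of the 7684 tested genes at 20 CPM or more on average. The 46 loops of the 15 pluripotency genes had 399 KO-labelled and 1824 WT-labelled tags. Their median ratio was 0.255, against 0.750 over all shared loops. More tags stood in the KO-labelled list for 3 of these loops and in the WT-labelled list for 42. Their RNA was less one-sided, with 5 genes higher and 9 lower in KO-labelled libraries. Of all tested genes at shared anchors, 28.4% were higher and 51.1% lower. At 20 CPM or more on average, 27.1% were higher and 60.8% lower, so the RNA split of the 15 genes lay near the general one. The list was drawn up with earlier results of these data known, so its direction is no independent evidence.

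All 5 loops of Nanog had more WT-labelled tags. The strongest, over 61.6 kb to chr6:122758284-122774326 within Slc2a3, had 5 KO-labelled and 100 WT-labelled tags. The other 4 had 2 to 6 KO-labelled tags against 17 to 45 WT-labelled tags. Nanog RNA fell to 406 and 407 CPM in KO-labelled libraries, against 1136 and 1144 CPM in WT-labelled ones (log2 fold change -1.49, adjusted p = 5.77e-25). The single shared loop of Pou5f1, over 40.8 kb to Cdsn, had 2 KO-labelled and 41 WT-labelled tags, and its RNA stood at 429 and 431 CPM in KO-labelled and 835 and 847 CPM in WT-labelled libraries.

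At Sox2 the longest of 4 loops was far more uneven in tags than the others. The loop of 106 kb from the gene to chr3:34750943-34766828, where no named gene started, had 7 KO-labelled and 124 WT-labelled tags. Its ratio was 0.0565 (interval 0.0222 to 0.120). The 3 shorter loops, of 14.2 to 34.6 kb, had 35 KO-labelled and 43 WT-labelled, 25 KO-labelled and 16 WT-labelled, and 14 KO-labelled and 7 WT-labelled tags, each with an interval that held 1 and a ratio below that of the list totals. Sox2 RNA differed little, at 438 and 473 CPM in KO-labelled and 543 and 530 CPM in WT-labelled libraries (log2 fold change -0.23, adjusted p = 9.02e-07). That difference was -0.02 and no longer passed the test with scaling by library size alone.

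Tfcp2l1 and Tbx3, transcription factors of the naive state, combined uneven loops with large falls in RNA. Tfcp2l1 had loops of 19.3 kb (6 KO-labelled and 122 WT-labelled tags) and 34.4 kb (5 KO-labelled and 34 WT-labelled tags), both ending in its own body. Its RNA fell to 135 and 135 CPM in KO-labelled libraries, against 1019 and 1018 CPM in WT-labelled ones (log2 fold change -2.92, adjusted p = 1.67e-29). Tbx3 had a loop of 64.6 kb with 4 KO-labelled and 68 WT-labelled tags, and its RNA fell to 25.1 and 29.6 CPM in KO-labelled libraries, against 286 and 291 CPM in WT-labelled ones (log2 fold change -3.40, adjusted p = 3.78e-22).

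At other genes of the list, tags and RNA went apart. The loop of Klf4, over 59.0 kb to chr4:55460603-55484119, had 7 KO-labelled and 32 WT-labelled tags, while Klf4 RNA was counted in the KO-labelled libraries alone. Klf2, a paralogue of Klf4, had 3 loops with 37 KO-labelled and 157 WT-labelled tags in all, while its RNA rose to 457 and 474 CPM in KO-labelled libraries, against 337 and 319 CPM in WT-labelled ones (log2 fold change 0.50, adjusted p = 1.55e-13). Sall1, a zinc-finger factor, had 3 loops with 23 KO-labelled and 69 WT-labelled tags and RNA of 349 and 329 CPM in KO-labelled and 74.0 and 77.9 CPM in WT-labelled libraries (log2 fold change 2.16, adjusted p = 3.46e-24). Mycn likewise had 11 KO-labelled and 46 WT-labelled tags while its RNA rose by 1.31 on the log2 scale (adjusted p = 5.88e-21). Jarid2, a Polycomb cofactor gene, had 16 KO-labelled and 205 WT-labelled tags in its shared loop, with RNA of 326 and 318 CPM in KO-labelled and 325 and 327 CPM in WT-labelled libraries (adjusted p = 0.612).

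**Figure D4:**
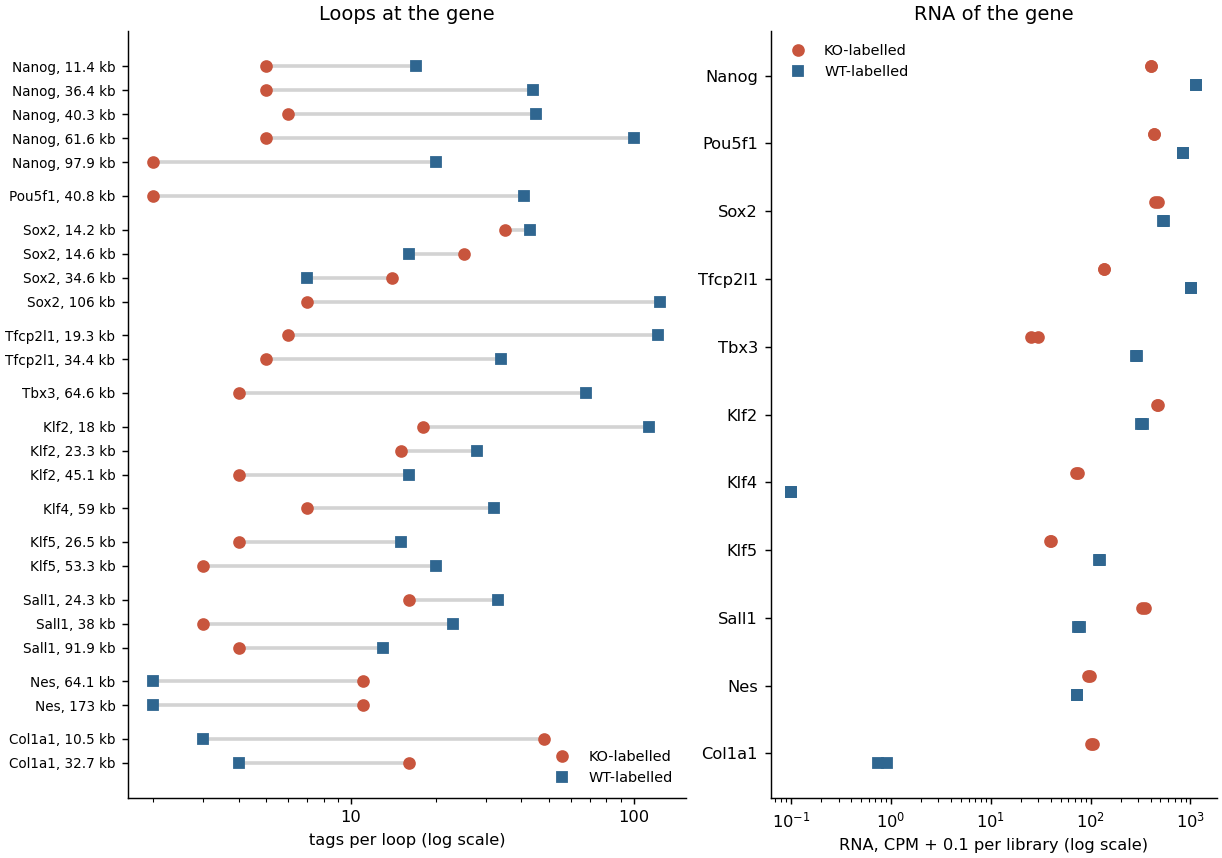
Left, tags of each shared strong loop at 11 named genes (log scale, loops named by gene and span) in the KO-labelled (red circles) and WT-labelled (blue squares) list; right, RNA per library of the same genes (CPM + 0.1, log scale). Loops of Nanog, Pou5f1, Tfcp2l1, Tbx3, Klf2, Klf4, Klf5 and Sall1 have more WT-labelled tags, those of Nes and Col1a1 more KO-labelled tags, and Klf4 has 0 counts in both WT-labelled libraries.

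Of all tested genes with coordinates, 19.4% had a start at a shared anchor. Of 26 tested neural progenitor genes 3 were at an anchor (Nes, Hes1 and Meis2), and none of 20 primed epiblast genes, 20 neuronal genes or 7 Hox genes. Wherever they lay, 21 of the 26 neural progenitor genes were higher and 2 lower in KO-labelled libraries (median log2 fold change 2.87). Of the 20 primed epiblast genes 17 were higher and 3 lower (median 2.06), while all 7 Hox genes were lower (median -3.15). Nes, an intermediate filament gene of neural progenitors, had loops of 64.1 kb to Hdgf and of 173 kb to Mef2d, each with 11 KO-labelled and 2 WT-labelled tags. Its RNA rose to 94.4 and 98.9 CPM in KO-labelled libraries, against 73.4 and 73.3 CPM in WT-labelled ones (log2 fold change 0.40, adjusted p = 7.32e-08). Hes1 and Meis2, with 20 KO-labelled and 9 WT-labelled and with 9 KO-labelled and 11 WT-labelled tags, did not pass the test (adjusted p = 0.773 and 0.28). Of 29 tested fibroblast, mesoderm and endoderm genes, 24 were higher and 3 lower in KO-labelled libraries (median log2 fold change 4.23). Only 3 of the 29 were at an anchor. Among them Col1a1, a chain of type I collagen, had 48 KO-labelled and 3 WT-labelled tags in a loop of 10.5 kb and RNA of 106 and 101 CPM in KO-labelled and 0.826 and 0.650 CPM in WT-labelled libraries (log2 fold change 7.10, adjusted p = 1.95e-25).

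Over all shared loops, 3675 genes had a start at an anchor, 2877 of them protein-coding, and 2881 were tested for RNA. Of these, 819 (28.4%) were higher and 1473 (51.1%) lower in KO-labelled libraries at an adjusted p under 0.05. Over all 17273 genes tested, 73.1% were called, 37.2% higher and 35.8% lower, so the anchors' genes were called slightly more often and more often lower. Of the genes with coordinates, which could lie at an anchor, 40.1% were called higher and 37.8% lower (77.9% in all). With scaling by library size alone, which moves the median log2 fold change of all genes to 0.24 from 0.03, the anchors' calls split into 1102 higher and 1176 lower. The calls also went with abundance. Among genes at 20 CPM or more on average, 27.1% were higher and 60.8% lower at the anchors, against 32.1% and 53.8% (85.9% in all) over all genes. The median log2 fold change in that range was -0.31 at the anchors and -0.19 over all genes.

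The genes at anchors of strong loops in 1 list alone lay on either side. With loops alone in the KO-labelled list, 44.2% of 2175 genes were higher and 34.4% lower. With loops alone in the WT-labelled list, 21.3% of 1702 genes were higher and 61.2% lower. Some genes stand in several of these groups, since they have more than 1 loop.

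Within the shared loops, the tag ratio went weakly with the RNA difference of the genes at the anchors. Across 2882 loops with a tested gene, Spearman's rho was 0.27 and Pearson's r 0.26 between the log2 tag ratio and the mean log2 fold change, and 0.32 and 0.31 across the 1555 loops with a tested gene at both anchors. These loops share lists, libraries and genes, so no p is given. At loops with a tag ratio under 0.25, 21.2% of 675 genes were higher and 61.2% lower in KO-labelled libraries, with a median log2 fold change of -0.42. At a ratio of 4 or more, 39.8% of 525 genes were higher and 39.6% lower, with a median of 0.03. Among the 298 genes higher by at least 2-fold, 201 (67.4%) had more KO-labelled tags in their loops, compared with 109 of the 416 genes lower by at least 2-fold (26.2%) and 297 of the 589 genes that were not called (50.4%). The RNA changes of different genes at the 2 ends of a loop were related more weakly, with a Spearman's rho of 0.15 across 1381 loops.

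**Figure D5:**
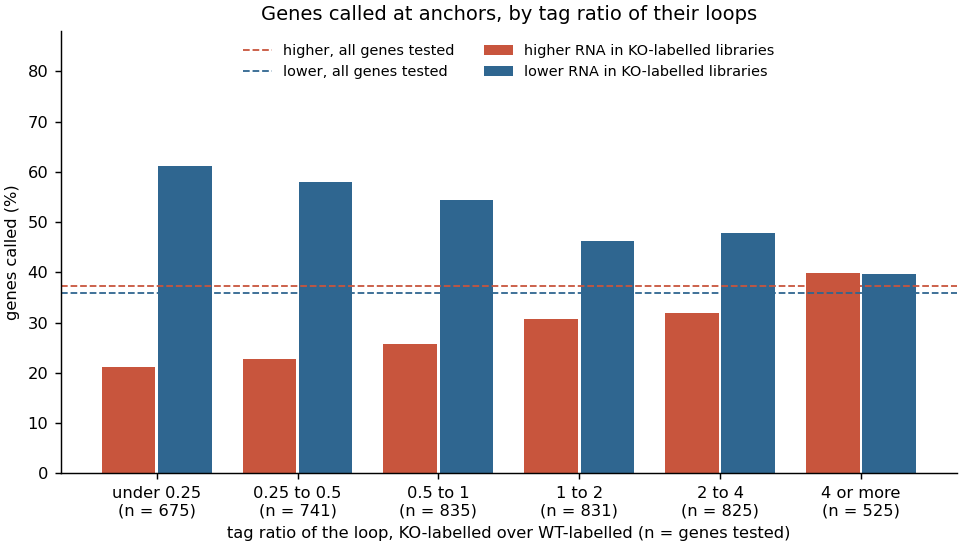
Share of genes at the anchors called higher (red) or lower (blue) in KO-labelled libraries, in percent of the genes tested, by the tag ratio of their shared loops; dashed lines give the shares over all genes tested, 37.2% and 35.8%. The share higher runs from 21.2% at ratios under 0.25 to 39.8% at ratios of 4 or more, and the share lower from 61.2% to 39.6%.

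The 10 largest rises among the anchors' genes were led by Klf4. Egr1, an immediate-early zinc-finger gene, came next, at 80.0 and 76.8 CPM in KO-labelled and 0.256 and 0.434 CPM in WT-labelled libraries (log2 fold change 7.86, adjusted p = 2.53e-24). Its 2 loops had 35 KO-labelled and 6 WT-labelled tags. Cdc42ep1, an effector of the GTPase Cdc42, had 31.2 and 30.7 CPM in KO-labelled and 1.28 and 1.19 CPM in WT-labelled libraries, with 55 KO-labelled and 8 WT-labelled tags. Glipr2 had 134 and 133 CPM in KO-labelled and 7.18 and 10.4 CPM in WT-labelled libraries, with 31 KO-labelled and 7 WT-labelled tags. The others were Col1a1, Slc5a5, Rhbdf1, Fosb, Cldn6 and Platr22. In 8 of the 10 the loops had more KO-labelled tags. The exceptions were Klf4 and Platr22, a noncoding RNA with 18.9 and 17.4 CPM in KO-labelled and 0.798 and 0.506 CPM in WT-labelled libraries but 28 KO-labelled and 142 WT-labelled tags.

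Of the 10 largest falls, 9 had more WT-labelled tags, namely Accsl, Sh2d4b, Il34, H2-M5, Mylpf, Krt42, Mras, Apom and Jam2. H2-M5, a nonclassical major histocompatibility gene, had 6 loops with 30 KO-labelled and 408 WT-labelled tags, the strongest of which reached Mog over 41.8 kb with 13 KO-labelled and 186 WT-labelled tags. Its RNA stood at 8.64 and 8.81 CPM in KO-labelled and 156 and 160 CPM in WT-labelled libraries (log2 fold change -4.18, adjusted p = 6.53e-26). Jam2, a junctional adhesion molecule gene, had 62.5 and 61.9 CPM in KO-labelled and 922 and 905 CPM in WT-labelled libraries, with 13 KO-labelled and 58 WT-labelled tags.

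Among gene groups, subunits and regulators of RNA polymerase II at shared anchors all fell. All 16 were lower in KO-labelled libraries (median log2 fold change -0.65), as were 26 of the 28 tested genes of the list wherever they lay. Among genes at 20 CPM or more on average, 60.8% were lower at shared anchors and 53.8% over all genes tested. Polr2a fell to 204 and 195 CPM in KO-labelled libraries, against 446 and 461 CPM in WT-labelled ones (log2 fold change -1.18, adjusted p = 8.74e-21). Polr2e, a subunit common to all nuclear RNA polymerases, fell by 1.28 on the log2 scale (adjusted p = 4.8e-21). With scaling by library size alone 14 of the 16 were called lower and none higher. Their 33 loops had 488 KO-labelled and 488 WT-labelled tags.

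Glycolysis genes fell in 9 of 12 cases, with 3 higher, and 24 of their 27 loops had more WT-labelled tags. Wherever they lay, 14 of 23 tested glycolysis genes were lower and 8 higher. Hk2, a hexokinase gene, fell to 71.8 and 76.9 CPM in KO-labelled libraries, against 386 and 405 CPM in WT-labelled ones (log2 fold change -2.41, adjusted p = 3.21e-25). Ldha, for lactate dehydrogenase, fell by 1.71 on the log2 scale (adjusted p = 5.63e-27), while Pfkm, a phosphofructokinase gene, rose by 1.55 (adjusted p = 1.21e-19). These shares and those of the next lists are to be read against the genes at shared anchors with 20 CPM or more, of which 60.8% were lower and 27.1% higher, and several lie close to them. MYC network and target genes were lower in 14 and higher in 3 of 19 cases, and cell cycle genes lower in 9 and higher in 2 of 12. Wherever they lay, 17 of 26 tested MYC network and target genes were lower and 4 higher. Of 34 tested cell cycle genes, 26 were lower and 5 higher. Genes for chromatin remodelling were lower in 8 and higher in 3 of 12, including Eed, a Polycomb subunit gene, which fell by 1.53 on the log2 scale (adjusted p = 9.79e-22). Chromatin architecture genes were lower in 4 and higher in 3 of 8, and their median log2 fold change of -0.16 turned to 0.05 with library size alone. Splicing genes were lower in 14 and higher in 0 of 17, a split that became 9 lower and 5 higher with scaling by library size alone. Cytoskeleton and housekeeping genes were lower in 14 and higher in 5 of 20, and of 5 noncoding RNA genes 1 was higher, Malat1 (3 with library size alone).

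Stress and immediate-early genes ran against this, with 14 of 19 higher and 4 lower (median log2 fold change 0.87). The 31 tested genes of the list, wherever they lay, did much the same, with 22 higher and 8 lower (median 0.94). Fos rose to 21.3 and 21.6 CPM in KO-labelled libraries, against 1.68 and 1.84 CPM in WT-labelled ones (log2 fold change 3.61, adjusted p = 1.3e-16), and Junb by 2.43 on the log2 scale (adjusted p = 1.2e-20). Of the 59 loops of the 19 genes at shared anchors, 22 had more KO-labelled and 37 more WT-labelled tags. The heat shock gene Hspa8 fell, to 1283 and 1248 CPM in KO-labelled libraries, against 3299 and 3291 CPM in WT-labelled ones. Signalling targets were higher in 5 and lower in 3 of 9, and their 26 loops had a median ratio of 2.49. Wherever they lay, 16 of 25 tested signalling targets were higher and 7 lower. Notch1, a receptor gene, rose by 1.00 on the log2 scale (adjusted p = 4.44e-14) with 145 KO-labelled and 30 WT-labelled tags, and the BMP target Id3 rose by 1.41 (adjusted p = 1.11e-15) with 51 KO-labelled and 8 WT-labelled tags. Smad7, an inhibitor of TGF-beta signalling, fell by 1.06 (adjusted p = 1.95e-16) with 17 KO-labelled and 153 WT-labelled tags.

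Ribosomal protein genes and histone genes made up the largest groups. Of 87 tested ribosomal protein genes 50 had a start at a shared anchor, and 30 of them were higher and 10 lower in KO-labelled libraries, at a median log2 fold change of 0.13. With library size alone 40 were higher and 2 lower. Over all 87, wherever they lay, 40 were higher and 31 lower, at a median of 0.04. Their 99 loops had 1288 KO-labelled and 1510 WT-labelled tags. Of the 32 tested replication-type histone genes 27 were at shared anchors, 1 higher and 13 lower, with 720 KO-labelled and 988 WT-labelled tags in 40 loops. With library size alone 1 was higher and 8 lower. Over all 32, wherever they lay, 4 were higher and 13 lower. Some of the genes called lower had few counts. Hist1h2bk had 2 and 5 counts in KO-labelled and 23 and 28 in WT-labelled libraries. Hist1h2bj had 2 and 3 counts in KO-labelled and 17 and 17 in WT-labelled libraries. Near-identical histone copies can also share reads, so the histone values are uncertain. Members of the KLF and SP family were higher in 6 and lower in 4 of 14 cases. Klf5 fell by 1.63 on the log2 scale (adjusted p = 2.32e-19) with 7 KO-labelled and 35 WT-labelled tags, and Klf13 rose by 1.00 (adjusted p = 5.05e-16) with 41 KO-labelled and 49 WT-labelled tags.

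Of 1005 miRNA hairpins with a position in RefSeq, 75 lay inside an anchor of a shared strong loop. Those shown, with bases 2 to 8 of the mature miRNA (the seed) in capitals, were chosen to cover both uneven and even loops and the seeds that recur.
miR-9-5p: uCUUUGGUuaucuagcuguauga
miR-193a-3p: aACUGGCCuacaaagucccagu
miR-365-3p: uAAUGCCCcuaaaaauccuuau
miR-200c-3p: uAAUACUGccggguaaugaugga
miR-141-3p: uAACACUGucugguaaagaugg
miR-195a-5p: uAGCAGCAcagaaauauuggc
miR-497a-5p: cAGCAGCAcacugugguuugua
miR-130a-3p: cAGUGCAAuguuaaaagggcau
miR-130b-3p: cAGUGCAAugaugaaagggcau

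The hairpin Mir9-3, which gives the neural miRNA miR-9, lay in an anchor of 2 loops with 165 KO-labelled and 23 WT-labelled tags. Mir193a and Mir365-2, neighbours on chromosome 11, lay in anchors of the same 7 loops, with 42 KO-labelled and 258 WT-labelled tags. The epithelial pair Mir200c and Mir141 was even, with 41 KO-labelled and 47 WT-labelled tags in 3 loops. Their seeds, AAUACUG and AACACUG, differ from each other. The seed AGCAGCA was common to miR-195a-5p and miR-497a-5p, whose hairpins lay in anchors with 41 KO-labelled and 23 WT-labelled tags. The seed AGUGCAA was common to miR-130a-3p and miR-130b-3p, with 9 KO-labelled and 10 WT-labelled tags at Mir130a and 11 KO-labelled and 2 WT-labelled tags at Mir130b. The polymerase loops were measured here, and the level of the mature miRNAs was not.

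Chromosomes held shared strong loops unevenly. Chromosome 11 had the most, 496 distinct loops (14.2%), followed by chromosome 2 with 392 and chromosome 7 with 294. Chromosome 11 also had the most strong rows, 2021 over both lists. Chromosome X had 11 distinct loops, and 13 of its 44 strong rows were shared (29.5%). The share of strong rows that were shared ran, over the autosomes, from 18.0% on chromosome 16 to 32.4% on chromosome 10.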

How the data were processed

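The authors deposited 1 loop list per genotype label, which gives a tag count and a false discovery rate (q-value) for each loop. Both replicates' labels name the same list, so replicates appear pooled. The submitters' processing notes name mm10 as the build and, without saying which step each served, Bowtie2 (2.4.4), HiC-Pro (2.11.1), MACS2 (2.2.7.1), HISAT2 (2.1.0), featureCounts (2.0.3) and DESeq2 (1.18.1). The loop caller is not given in the sources used here. The deposited RNA-seq values are counts per gene that were not normalized. Their closing rows have another counter's form, so the counter and its strand setting are not settled and overlapping genes cannot be told apart. Rows that name no gene (20.4% to 22.5% of the column totals) were left out. With 3 counts as a floor, the limit was 0.0837 to 0.108 CPM.

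Rows were linked by overlap of both anchors, and groups of linked rows were counted as 1 distinct loop, with tags summed per list and coordinates, written from base 1, taken from the row with most tags. Anchors differ between lists, and a list can split 1 contact over several rows. Gene starts came from RefSeq (GRCm38.p6). Unnamed gene models count in the shares of gene starts but were left out where genes are named at single loops. Of the 3675 genes at anchors, 743 had no strand and were placed by either annotated end. Of the genes tested, 85.9% had coordinates. RNA was compared by edgeR's two-sided quasi-likelihood test (edgeR 4.0.16, R 4.3.3), with robust estimation, TMM scaling, the filterByExpr filter and Benjamini-Hochberg adjustment over 17273 genes. DESeq2 1.42.0 was an alternative. The gene test and the search for overlaps were tested on simulated data. CPM use TMM-scaled library sizes. P-values measure the spread between 2 libraries per label. Python 3.11.15 with pandas 2.3.3 and scipy 1.17.1 did the rest.

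The members, lists and tests were chosen with earlier results of these data known. Loops were named by lower tag count (10), span (5) and extreme ratios (5 and 5), with the 5 busiest anchors. Genes were named by their place at those loops, by the 10 largest rises and falls among called genes with at least 5 CPM in the higher group and groups apart, and by up to 4 members per list. A further 31 genes were chosen after their values were seen. Of the 10 largest falls, 1 is not reported here. ChIP-seq samples of undifferentiated ESCs were not used here. No sequence of the anchors beyond promoters and miRNAs was used here.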

Additional observations from a re-analysis of the deposited data

How the results depend on the processing

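The number of distinct shared loops follows the rule. It was 3499, and 1952 with at least 15 tags, 1279 with at least 20, 2076 with a partner of at least 5 tags and 708 with a false discovery rate of at most 0.01 in both rows. With at least 20 tags, the median ratio of KO-labelled over WT-labelled tags was 0.476 (against 0.750), the median span 22.2 kb (against 27.1), the median anchor width 9.72 kb (against 7.66), and 322 genes were called higher and 613 lower. With spans of at least 20 kb only, the ratio was 0.621, the span 49.7 kb and the width 9.01 kb. A window of 1000 or 5000 bases gave a gene start at both anchors in 51.5% or 63.6% of loops, against 55.0%. Spearman's rho was 0.32 with a tested gene at both anchors, against 0.27.

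The replicate numbers in the labels did not pair the libraries (correlation of deviations 0.0153). With a replicate block, 805 genes at anchors were higher and 1466 lower, against 819 and 1473. Leaving out 1 library gave 749 to 783 higher and 1423 to 1443 lower. DESeq2 gave 757 and 1396.

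Of 124 named genes tested, 105 kept direction and side of the threshold in all 10 alternatives. The other 19 lost a call (30 pairs of gene and alternative), gained one (12 pairs) or changed sign (17 pairs). With upper-quartile factors and with library size alone, the log2 fold change was 0.08 and 0.20 for Sept1, 0.05 and 0.17 for Tnfsf12, 0.07 and 0.19 for Jarid2, and 0.06 and 0.18 for Hes1, and with library size alone 0.03 for Zfp704. Leaving out 1 library gave -0.05 to 0.03 for Sept1, -0.25 to 0.18 for Tnfsf12, -0.09 to 0.02 for Hes1, -1.49 to 0.27 for Hist1h1a, -0.12 to 1.22 for Hist1h1d and -0.02 to 0.62 for Hist1h4i. The cause was not tested. Depth limits loops with few tags in 1 list, whose ratios have wide counting intervals.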
